A study of Mus musculus with 4 samples.

Results

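Desmosomes are the cell-to-cell junctions that tie the keratin filaments of neighbouring epithelial cells together. The 10 desmosome genes described here are 5 cadherins (Dsg1a, Dsg2, Dsg3, Dsc2 and Dsc3), 4 plaque genes (Dsp, Jup, Pkp1 and Pkp3) and Perp. They were picked by symbol out of 24453 genes, and all 10 passed the filter on low counts. RNA came from epithelium of the mouse tongue, without the circumvallate papillae at the back, on embryonic day 16. Cells were taken by flow sorting for EpCAM, an adhesion molecule of epithelial cells, and 2 control libraries were set against 2 labelled Ring1a/b 2KO. The 2KO genotype is Ring1a-/- Ring1bfl/fl K14-Cre+: the Ring1a alleles are null throughout the embryo, and the floxed Ring1b alleles are cut by a Cre recombinase driven by the keratin 14 promoter, which is active in basal keratinocytes and the cells that descend from them. The labels call the other group control and give no allele for it. They do not say whether replicates were separate embryos or pools, so p-values reflect only how much these libraries vary, and that variation may be technical. Ring1a and Ring1b are the catalytic subunits of Polycomb repressive complex 1, and the question is its role in the developing tongue epithelium.

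In a desmosome, desmogleins (Dsg) and desmocollins (Dsc) span the membrane and bind their counterparts on the next cell. Inside the cell their tails hold the armadillo proteins plakoglobin (Jup) and plakophilins (Pkp), and desmoplakin (Dsp) links these to keratin filaments. Stratified epithelia change their cadherins from layer to layer. Desmoglein 1 belongs to the differentiated upper layers, desmoglein 3 and desmocollin 3 are strong in the lower layers, and desmoglein 2 and desmocollin 2 occur in many epithelia and in the heart. Perp is a tetraspan membrane protein that desmosomes of stratified epithelium need, and its gene is a known target of p63.

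The libraries held 16256569 to 20624055 counts. The ribosomal RNA precursor gene Rn45s took 15.3% to 16.7% of the counts in control and 20.2% to 22.9% in the libraries labelled 2KO, a difference that goes along with every result below. Leaving out the counts of Rn45s, Malat1 and Lars2 gave log2 fold changes of -2.95 for Dsg1a, -1.21 for Dsp and 0.04 for Jup, beside the values given below. The targeted genes did not check the labels: both had higher counts in 2KO, and neither passed the test (adjusted p = 0.101 for Ring1 and 0.126 for Rnf2). Ring1 had 8.57 to 9.02 CPM (CPM being read counts scaled to library size) in control and 15.0 to 16.8 CPM in 2KO, and Rnf2, the gene of Ring1b, 34.0 to 51.3 and 62.4 to 62.9 CPM. Counts summed over a gene cannot reveal a deletion of some exons, so all directions below are those of the library labels. The epithelial markers Epcam (189 to 245 CPM), Cdh1 (717 to 930 CPM) and Trp63 (837 to 1029 CPM) were present in all 4 libraries. The labels' protocol calls the sorted cells basal, yet Krt13, a keratin of upper layers, reached 946 to 1359 CPM in control.

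Of the 10 desmosome genes, 6 were lower in the libraries labelled 2KO at an adjusted p under 0.05 (edgeR quasi-likelihood test, Benjamini-Hochberg over 15336 genes), 0 were higher and 4 did not pass. Over all genes tested, 4.92% were called lower and 7.00% higher, 11.9% in all. At an unadjusted p under 0.05, 0 of the 10 were higher, and DESeq2 and limma-voom also called 0 higher. The share of all genes at that unadjusted level in edgeR is not given, here or for the lists below. Among the 1936 genes that averaged 100 CPM or more, a level that all 10 exceed and that was chosen after the values were seen, 12.2% were called lower. The 10 genes had a median log2 fold change of -0.90, with -1.03 over the 5 cadherins and -0.65 over the 4 plaque genes, beside 0.0065 over all genes tested and -0.08 over those of at least 100 CPM. In 8 of the 10 both 2KO libraries lay below both controls, against 28.7% of all genes tested, and the exceptions were Dsg3 and Jup. The members ranged from a 7.83-fold decrease for Dsg1a to a log2 fold change of 0.02 for Jup. Cadherins and plaque genes each held strongly lowered genes, such as Dsg1a and Dsp, and genes that were not called. The uncalled ones were Dsg2 and Dsg3 among the cadherins, and Jup and Pkp3 among the plaque genes. In RNA from bulk sorted cells, fewer cells of a layer and less RNA per cell cannot be told apart, and this holds for each difference below.

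**Figure D1:**
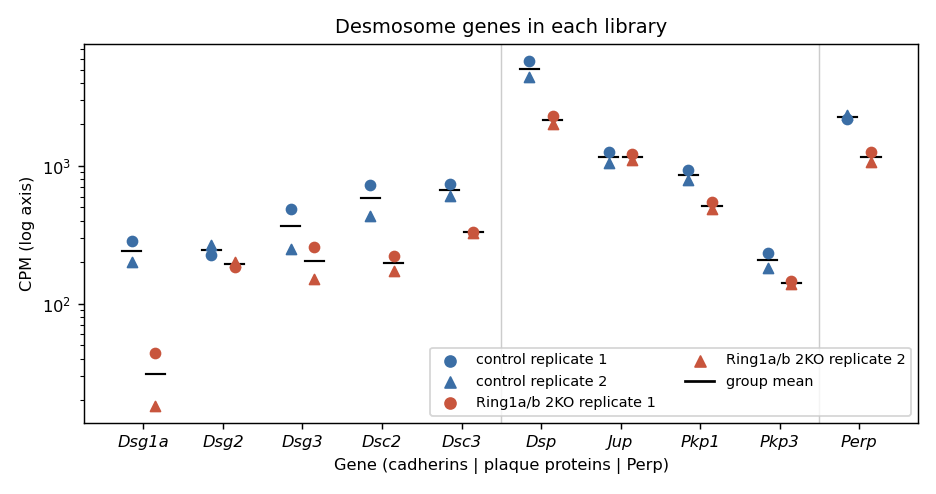
CPM of the 10 desmosome genes (log axis) in each library, controls in blue and libraries labelled 2KO in red, with circles for replicate 1, triangles for replicate 2 and bars for group means (n = 2). Dsg1a separates the groups most widely, from 200.5 and 285 CPM to 18.3 and 43.9 CPM, while the Jup points of both groups lie between 1048 and 1257 CPM.

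Dsg1a encodes a desmoglein of the upper layers (chromosome 18, 20310811 to 20343350, mm10). It was counted at 285 and 200.5 CPM in control replicates 1 and 2 and at 43.9 and 18.3 CPM in 2KO-labelled replicates 1 and 2. Both 2KO libraries were far below both controls, and the second was under the first by more than the controls differed from each other in proportion. The fold change fitted was -2.97 on the log2 scale (standard error 0.344, 95% interval -3.73 to -2.21, adjusted p = 0.000441), which leaves 12.8% of the control level. Without 2KO replicate 1 it was -3.74, and it stayed called without each library in turn. Its paralog Dsg1b, which is not among the 10, was at 260 and 203 CPM in the controls against 56.8 and 32.2 CPM in 2KO (log2 fold change -2.38, adjusted p = 0.000276). The 2 genes are close copies: 21.9% of all windows of 100 bases, the read length, in annotated Dsg1a transcripts also occur in Dsg1b transcripts, and 9.09% occur in those of Dsg1c. Reads of the shared stretches could have been split or dropped by the authors' counting, so the level of each copy is uncertain, although both were lower.

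The other desmogleins did not pass the test. Dsg3, the desmoglein of the lower layers in skin, which oral epithelium makes in all layers, was at 487 and 250.1 CPM in the controls against 257 and 152 CPM in 2KO. The groups overlap, since the second control lies just under the first 2KO library. Its log2 fold change was -0.85 (95% interval -1.50 to -0.20, adjusted p = 0.0879). The call depended on single libraries: without control replicate 2 it was -1.24 (adjusted p = 1.422e-05), without 2KO replicate 1 it was -1.28 (adjusted p = 3.304e-06), and without control replicate 1 it was -0.27 (adjusted p = 0.407). Dsg2, the desmoglein shared with simple epithelia and heart muscle, was at 228 and 266 CPM in the controls against 185 and 202 CPM in 2KO. The groups do not overlap but lie close together, with a log2 fold change of -0.35 (95% interval -0.69 to -0.01, adjusted p = 0.167). None of the 100-base windows of Dsg2, Dsg3, Dsc2 or Dsc3 transcripts occurs in another gene of the desmosomal cadherin cluster.

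Both desmocollins fell. Dsc2, the broadly made desmocollin, was at 725 and 436 CPM in the controls against 224 and 172 CPM in 2KO (log2 fold change -1.55, standard error 0.227, adjusted p = 0.00167). Its control replicates differed more from each other than its 2KO replicates did, yet the lower control was still 1.95 times the higher 2KO library. Dsc3, the desmocollin of the lower layers, was at 735 and 608 CPM in the controls against 331 and 327 CPM in 2KO (log2 fold change -1.03, standard error 0.148, adjusted p = 0.00146). Here the 2KO libraries almost coincided. Dsc2 made up 53.2% and 45.9% of the desmocollin FPKM in control and 44.4% and 38.2% in 2KO. FPKM, the level the authors divided by gene length and library size, allows levels of different genes to be compared.

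**Figure D2:**
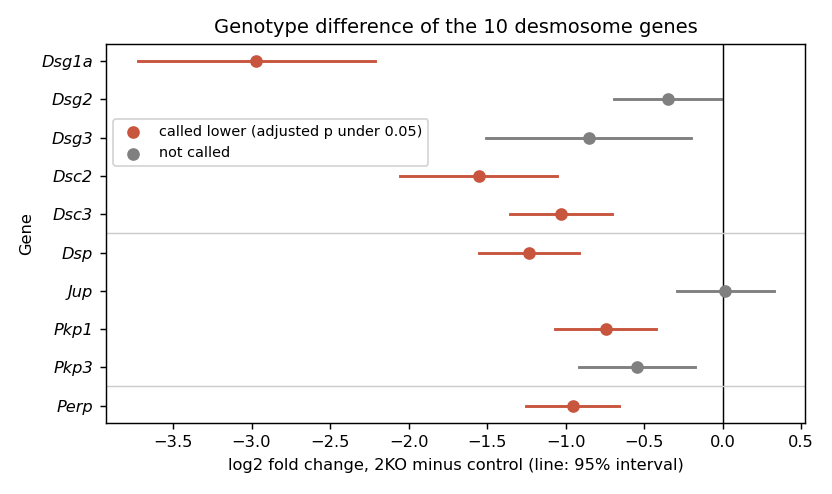
Fitted log2 fold change (2KO minus control, points) and 95% interval (lines) of each desmosome gene, cadherins at the top, plaque genes in the middle and Perp at the bottom, with called genes in red and uncalled ones in grey. Dsg1a stands at -2.97, and the interval of Jup runs from -0.29 to 0.32.

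Among the desmogleins the suprabasal member held a smaller share in the libraries labelled 2KO. Dsg1a made up 21.7% and 21.4% of the summed FPKM of Dsg1a, Dsg2 and Dsg3 in control, and 6.95% and 3.54% in 2KO. The control libraries agree closely and both 2KO libraries are well below them. Dsg2 took 22.2% and 37.2% in control and 35.3% and 51.1% in 2KO, and Dsg3 took 56.1% and 41.4% in control and 57.7% and 45.4% in 2KO, so in FPKM the shares of both overlap between groups. With CPM per kilobase of annotated exon in place of FPKM, Dsg1a had 34.0% and 34.1% in control and 11.5% and 6.51% in 2KO. With Dsg1b added to Dsg1a, a choice made after seeing the data, the FPKM share was 35.6% and 36.7% in control and 15.1% and 10.1% in 2KO. The Dsg2 share did not overlap under either of these, at 18.7% and 31.1% in control and 33.5% and 49.5% in 2KO on CPM per kilobase, and at 18.3% and 29.9% and at 32.2% and 47.6% with Dsg1b added. A test of such a ratio over 2 against 2 libraries cannot give an exact permutation p below 0.33, so the ratios here are descriptions.

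Measured against the summed plaque genes, the suprabasal cadherin and the sum of the other 4 cadherins were lower in the libraries labelled 2KO, the suprabasal one in greater proportion. For each 100 FPKM summed over Dsp, Jup, Pkp1 and Pkp3 there were 2.90 and 2.34 FPKM of Dsg1a in control and 0.816 and 0.363 in 2KO. For the 4 basal or broad cadherins (Dsg2, Dsg3, Dsc2 and Dsc3) there were 30.8 and 25.8 in control and 24.6 and 23.9 in 2KO. The second ratio did not overlap between groups, and its difference of -4.04 became -1.56 without control replicate 1 and -6.53 without control replicate 2. On CPM per kilobase of annotated exon it was 35.6 and 31.9 in control and 28.3 and 26.9 in 2KO, also without overlap. In summed FPKM, these 4 cadherins went from 393 and 264 to 193 and 159, and the plaque genes from 1275 and 1022 to 783 and 664. Both sums were lower in both 2KO libraries than in either control. The sums do not stand for each gene. Dsg2 went from 37.9 and 41.4 to 32.5 and 34.8 FPKM, a smaller decrease in proportion than that of the plaque sum. Fitted log2 fold changes were -1.55 for Dsc2, -1.03 for Dsc3, -0.85 for Dsg3 and -0.35 for Dsg2. Within the plaque sum they ran from -1.23 for Dsp to 0.02 for Jup.

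Within the plaque the genes did not move alike. Dsp encodes desmoplakin, the link to keratin filaments (chromosome 13, 38151294 to 38198577), and had 5754 and 4401 CPM in the controls against 2295 and 2027 CPM in 2KO. Its log2 fold change was -1.23 (standard error 0.146, 95% interval -1.55 to -0.91, adjusted p = 0.000491), and the lower control was well above the higher 2KO library. Jup encodes plakoglobin, which joins the cadherin tails to desmoplakin and also serves adherens junctions (chromosome 11, 100368958 to 100397763). It was at 1257 and 1048 CPM in the controls against 1221 and 1113 CPM in 2KO, with both 2KO libraries between the controls. Its log2 fold change was 0.02 (95% interval -0.29 to 0.32, adjusted p = 0.954), an interval that leaves out the decrease fitted for Dsp. In FPKM, the ratio of Dsp to Jup was 2.37 and 2.09 in control and 1.12 and 1.11 in 2KO. Jup made up 22.0% and 23.6% of the plaque FPKM in control and 35.0% and 34.8% in 2KO, while Dsp went from 52.3% and 49.3% to 39.1% and 38.7%. Exons of Gm10129 overlap 5.17% of the exonic length of Dsp. How reads there were counted is not given in the sources used here, so their effect on the Dsp value is not known.

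The region upstream of the gene start is shown for Dsp and Jup, the 2 of the 10 genes that matched the RefSeq promoter table (build GRCm38.p6). They are also the plaque genes with the lowest and the highest fold change. Each run holds the 250 bases before the start in the direction of transcription, and capitals mark CG, the dinucleotide that makes up CpG islands, where Polycomb complexes are often found.
Dsp (chr13:38151044-38151293, plus strand): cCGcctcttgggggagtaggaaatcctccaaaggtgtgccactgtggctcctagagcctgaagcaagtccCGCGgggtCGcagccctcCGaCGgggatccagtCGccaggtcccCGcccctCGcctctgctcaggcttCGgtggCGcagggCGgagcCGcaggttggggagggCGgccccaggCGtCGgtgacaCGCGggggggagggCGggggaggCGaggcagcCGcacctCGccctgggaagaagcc
Jup (chr11:100397791-100398040, minus strand): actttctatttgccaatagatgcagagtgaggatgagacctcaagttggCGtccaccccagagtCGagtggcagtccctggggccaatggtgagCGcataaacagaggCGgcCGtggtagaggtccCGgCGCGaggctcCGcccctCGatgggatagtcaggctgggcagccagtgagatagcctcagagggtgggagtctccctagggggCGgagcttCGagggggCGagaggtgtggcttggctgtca
The Dsp window holds 22 CG, more than 85.2% of the 32851 promoter windows of that length, whose median is 6. The Jup window holds 13 CG, more than 68.5% of them. The GC box GGGCGG occurs 3 times on the printed strand and 1 time on the other in Dsp, and 1 time on each strand in Jup. Each GC box includes a CG, and 32.7% of all windows have a GC box on either strand. The E-box CAGGTG was found on neither strand of either window, against 17.2% of all windows with it. No binding or chromatin mark was measured in these libraries, so the windows are a description of sequence alone.

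Plakophilins cluster the cadherins from the inside, and of Pkp1 and Pkp3 the first was called lower. Pkp1, the plakophilin typical of stratified epithelium, was at 939 and 787 CPM in the controls against 543 and 487 CPM in 2KO (log2 fold change -0.74, standard error 0.146, adjusted p = 0.00873). Pkp3, found in most epithelia, was at 233 and 182 CPM in the controls against 146 and 139 CPM in 2KO. All 2KO values lie under all controls for both genes, but Pkp3 missed the threshold (log2 fold change -0.55, 95% interval -0.92 to -0.18, adjusted p = 0.0568). Pkp3 passed with DESeq2 (adjusted p = 0.0237), with limma-voom (adjusted p = 0.0380). With control replicate 2 left out, its edgeR log2 fold change was -0.71 (adjusted p = 0.00573), and without control replicate 1 it was -0.34 (adjusted p = 0.220). It was not called without 2KO replicate 1 (adjusted p = 0.12) or 2KO replicate 2 (adjusted p = 0.188).

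**Figure D3:**
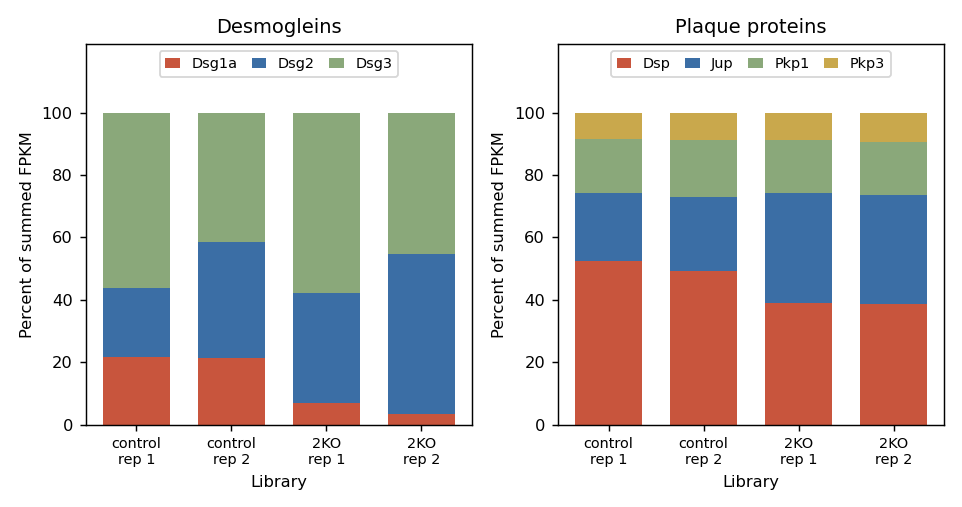
Share of summed FPKM taken by each desmoglein (left) and each plaque gene (right) in each library; bars stack to 100%. Dsg1a shrinks from 21.4% and 21.7% in control to 3.54% and 6.95% in the libraries labelled 2KO, and Jup grows from 22.0% and 23.6% to 34.8% and 35.0% of the plaque.

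Perp was at 2182 and 2342 CPM in the controls against 1267 and 1068 CPM in 2KO (chromosome 10, 18845020 to 18857073). The control libraries were close together and the higher 2KO library was at 58.1% of the lower control. Its log2 fold change was -0.95 (standard error 0.134, 95% interval -1.25 to -0.66, adjusted p = 0.00129). Trp63, the gene of p63, was at 905 and 960 CPM in the controls against 837 and 1029 CPM in 2KO, with overlapping groups (log2 fold change 0.0012, 95% interval -0.31 to 0.32, adjusted p = 0.996). Per 100 FPKM of plaque genes there were 96.1 and 126 FPKM of Perp in control and 99.4 and 97.0 in 2KO, which overlap.

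Levels per length put the 10 genes in order. In control, Perp was highest (1225 and 1284 FPKM), followed by Dsp (667 and 503), Jup (281 and 241) and Pkp1 (219 and 186), and none of these overlapped with its neighbour. Dsc2 (138 and 80.9), Dsc3 (121 and 95.4) and Pkp3 (108 and 90.5) overlapped with each other, and each of them overlapped with Dsg3 (95.6 and 46.1). Dsg2 (37.9 and 41.4) and Dsg1a (37.0 and 23.9) were lowest. Their order is not firm, since Dsg1a stood above Dsg2 in control on CPM per kilobase of annotated exon. In the libraries labelled 2KO, Perp (778 and 644 FPKM) was still highest, and Dsp (306 and 257) now overlapped with Jup (274 and 231). On CPM per kilobase, however, Dsp (238 and 210) stayed above Jup (190 and 173). Dsc2 (47.5 and 35.6 FPKM) now lay under Pkp3 (69.6 and 62.0) and Dsc3 (59.5 and 57.6) and still overlapped with Dsg3 (53.1 and 30.9). On CPM per kilobase Dsc2 ranked 6 in control and 7 in 2KO, so its place beside Dsg3 is not firm either. Dsg1a (6.39 and 2.41) was last by a wide gap from Dsg2 (32.5 and 34.8).

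The 5 cadherin genes lie in one cluster of desmosomal cadherins on chromosome 18 (19960930 to 20604521, mm10), which spans 644 kb and holds 9 such genes. Along it the desmocollins come first, then the desmoglein 1 copies, Dsg4, Dsg3 and Dsg2. The called genes Dsc3 and Dsc2 are neighbours at one end, and Dsg1a and Dsg1b are neighbours in the middle. Dsg3 and Dsg2, at the other end, were not called. The remaining genes were almost silent: Dsc1, a desmocollin of cornified epithelium, was at 2.00 to 2.45 CPM in the controls against 1.25 to 1.48 CPM in 2KO, Dsg1c was at 0.284 to 0.792 CPM over all 4 libraries, and Dsg4 at 0.0490 to 0.510 CPM. At 5 to 50 counts per library, a change in Dsc1 or Dsg1c was not detectable at this depth, with 95% intervals of the log2 fold change from -2.52 to 1.12 and from -2.99 to 2.29. Exons of the antisense gene Gm16090 overlap 3.99% of the exonic length of Dsg2, and the strand setting of the counting is not given in the sources used here.

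**Figure D4:**
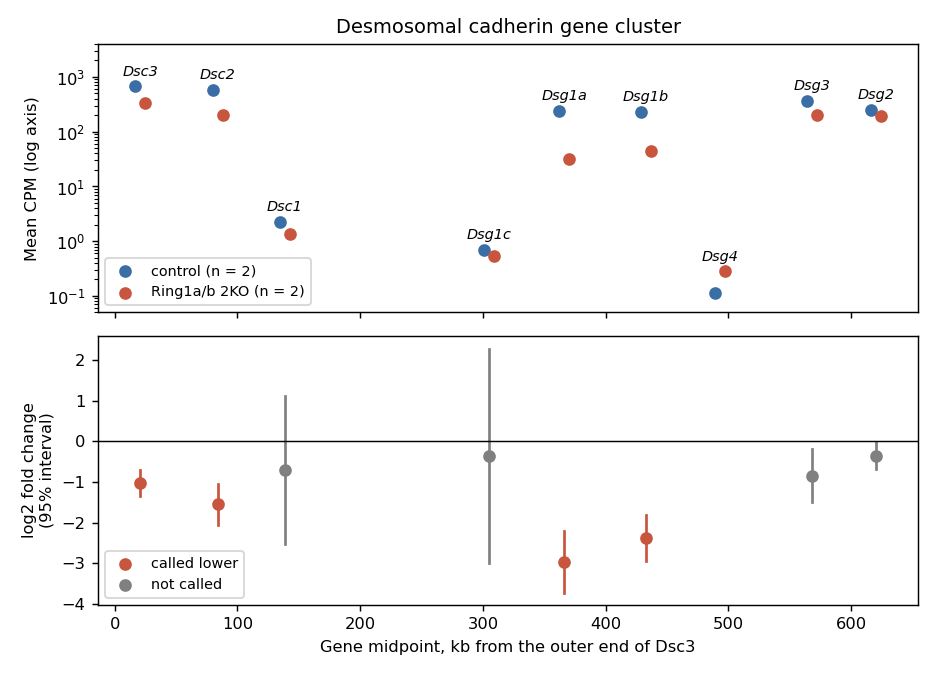
Mean CPM of each cadherin gene of the cluster (top, log axis, control in blue, 2KO in red, n = 2 each) and its log2 fold change with 95% interval (bottom) against its distance along the chromosome in kb. Dsg4 was not tested and has no point below; the greatest decreases, -2.97 and -2.38, belong to the neighbours Dsg1a and Dsg1b.

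Of 9 further desmosome genes tested from a list of 10, 3 were lower, 1 was higher and 5 did not pass, beside the 4.92% lower and 7.00% higher among all genes. The 3 were Dsg1b and the envelope-linked plaque genes Ppl and Evpl. Ppl, the gene of periplakin, was at 464 and 376 CPM in the controls against 249 and 208 CPM in 2KO (log2 fold change -0.88, adjusted p = 0.00691). Evpl, the gene of envoplakin, had a log2 fold change of -0.73 (adjusted p = 0.0420) and lost its call without control replicate 1 (-0.52, adjusted p = 0.0703) and without 2KO replicate 2 (-0.49, adjusted p = 0.229). Upper quartile scaling (adjusted p = 0.0653) and leaving out Rn45s, Malat1 and Lars2 (adjusted p = 0.0533) also ended it. The gene that rose was Pkp2, a plakophilin best known from simple epithelia and heart muscle. It was at 17.4 and 18.4 CPM in the controls against 36.3 and 43.7 CPM in 2KO, a log2 fold change of 1.16 (standard error 0.231, adjusted p = 0.00926), and it stayed called without each library in turn. Pkp2 took 1.58% and 2.10% of the summed FPKM of Pkp1, Pkp2 and Pkp3 in control and 5.58% and 7.92% in 2KO, so it remained the least of these. Pkp4, a relative found at several kinds of junction, was at 407 and 466 CPM in the controls against 456 and 452 CPM in 2KO (adjusted p = 0.837).

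Adherens junctions, the neighbouring junctions built on classical cadherins, had 0 genes lower, 1 higher and 9 not passing of 10 tested, which is near the 4.92% and 7.00% of all genes. At an unadjusted p under 0.05, 3 were lower and 2 higher, with no share of all genes at that level to set beside them. Without control replicate 1, 3 were called higher, and without control replicate 2, 2 were called lower. The edgeR log2 fold changes of Cdh1, Ctnnb1 and Ctnna1 were -0.19, -0.17 and -0.46 (adjusted p = 0.467, 0.450 and 0.0623). Over the list, Ctnna1 and Nectin4 were called lower with DESeq2 and limma-voom. The gene that rose was Nectin2, an adhesion receptor, at 39.6 and 20.5 CPM in control and 64.6 and 73.7 CPM in 2KO (log2 fold change 1.2, adjusted p = 0.0188). Whether desmosome and adherens genes differ as groups was not tested. Of 9 hemidesmosome genes, which anchor basal cells to the basement membrane, 2 were lower and 7 did not pass, beside 4.92% lower among all genes. That count was 0 without 2KO replicate 1, 1 without control replicate 1 or 2KO replicate 2, and 4 without control replicate 2, with DESeq2 or with limma-voom. Lamb3, a laminin chain, was among the lower genes (log2 fold change -0.62, adjusted p = 0.0394). It lost its call with upper quartile scaling (adjusted p = 0.0524), without control replicate 1 (0.138), without 2KO replicate 1 (0.14) and without 2KO replicate 2 (0.0583).

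Keratins, the filaments to which desmoplakin attaches, were lower in 6 of 9 tested, with 0 higher (also 0 at an unadjusted p under 0.05), and in 3 without control replicate 1. Among all genes, 4.92% were called lower and 7.00% higher. Krt13, the keratin of upper oral layers, was at 1359 and 946 CPM in the controls against 239 and 104 CPM in 2KO. Krt6a, a keratin of the surface and of wounds whose reads can be shared with close paralogs, was at 5175 and 4099 CPM in the controls against 1743 and 1492 CPM in 2KO (log2 fold change -1.52). Krt76 and Krt4, keratins of the upper oral epithelium, had log2 fold changes of -3.81 and -1.70. The call of Krt76 ended without control replicate 1 (-2.15, adjusted p = 0.126) and with limma-voom (adjusted p = 0.0778), and that of Krt4 with DESeq2 (adjusted p = 0.0761). Of 10 keratinocyte transcription factors, 1 was higher, 2 were lower and 7 did not pass, beside the same shares of all genes. The count lower was 1 without control replicate 1 or 2KO replicate 1, 0 without 2KO replicate 2 and 5 without control replicate 2, and the count higher was 3 without control replicate 1 and 2 without 2KO replicate 1. Klf5 rose (log2 fold change 0.78, adjusted p = 0.00988). Grhl1, a factor known to act on Dsg1 in skin, was at 83.0 and 62.1 CPM in the controls against 43.7 and 32.0 CPM in 2KO (log2 fold change -0.94, adjusted p = 0.0214), a call lost without 2KO replicate 2 (-0.74, adjusted p = 0.0934). Grhl3 was lower by -0.58 (adjusted p = 0.0344) and lost its call without control replicate 1 (0.0655), without 2KO replicate 1 (0.174) and without 2KO replicate 2 (0.0960).

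Of 6 proteases and inhibitors that act on desmosomal cadherins tested from a list of 7, 3 were lower and 0 higher. The shares of all genes were 4.92% lower and 7.00% higher. Spink5, whose product restrains the kallikreins that cut desmoglein 1, was at 319 and 133 CPM in the controls against 27.6 and 15.8 CPM in 2KO (log2 fold change -3.38, standard error 0.383, adjusted p = 0.000395). Klk14, one of these kallikreins, was at 10.5 and 2.64 CPM in the controls against 0 and 0.247 CPM in 2KO, and lost its call without control replicate 1 (adjusted p = 0.0678) and with limma-voom (adjusted p = 0.0774). Adam10, a membrane protease that sheds cadherins, was at 144 and 139 CPM in the controls against 87.3 and 90.6 CPM in 2KO (log2 fold change -0.67, adjusted p = 0.0199). It lost its call without 2KO replicate 1 (adjusted p = 0.101) and without 2KO replicate 2 (adjusted p = 0.0647).

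**Figure D5:**
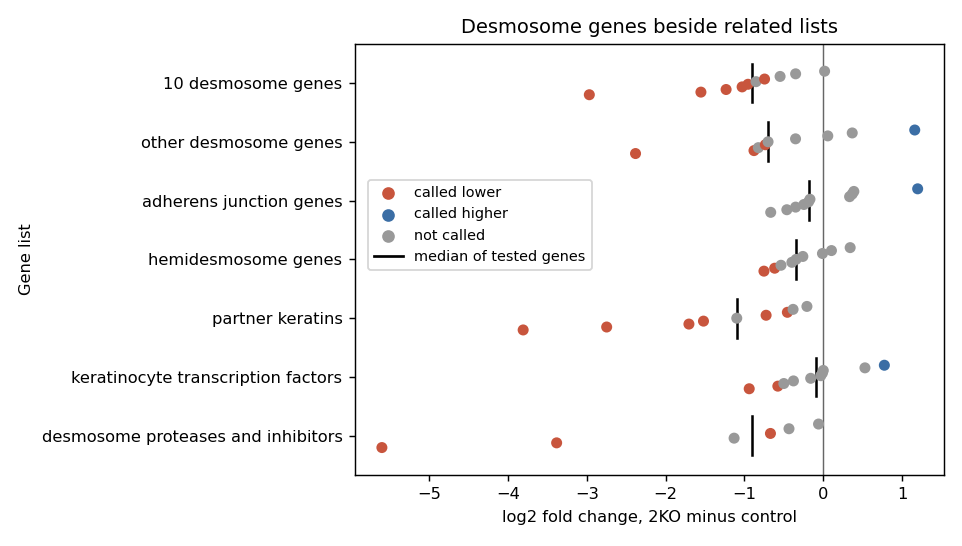
Log2 fold change (2KO minus control) of each tested gene in the 10 desmosome genes and in 6 related lists, called lower in red, called higher in blue and not called in grey, with the median of each list as a bar. The medians are -0.90 for the 10 desmosome genes, -0.18 for the adherens junction genes and -1.10 for the keratins.

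Most markers of the upper epithelial layers were lower along with these genes. Most basal markers were not called, but their sum was also lower in both 2KO libraries than in either control. At an unadjusted p under 0.05 (edgeR), 8 suprabasal markers and 4 of 7 basal markers were lower, and 0 of either were higher. Over all genes tested, 4.92% were called lower and 7.00% higher at the adjusted threshold, which is stricter. The share of all genes at the unadjusted level is not given, so these unadjusted counts have no background. Summed over 10 markers of the suprabasal layers, the level was 3545 and 2464 CPM in control and 1280 and 600 CPM in 2KO, with 6 of 9 tested called lower. Summed over 7 markers of the basal layer it was 15303 and 12538 CPM in control and 10625 and 11513 CPM in 2KO, with 2 of 7 called lower (Krt5 and Krt14), and both calls ended without control replicate 1 (adjusted p = 0.113 and 0.0674). Summed over 5 markers of the periderm, the embryonic surface layer, it was 6633 and 5645 CPM in control and 2811 and 2411 CPM in 2KO. Of these, 3 of 5 were called lower. Krt6a alone gave 5175 and 4099 CPM of the control sums and 1743 and 1492 CPM of the 2KO sums. Sfn and Krt19 were not called and overlapped between groups. The call of Krt17 ended with upper quartile scaling (edgeR adjusted p = 0.0584). Of the suprabasal sums, Krt13 alone gave 1359 and 946 CPM in control and 239 and 104 CPM in 2KO. Krt4 gave 787 and 503 CPM in control and 282 and 114 CPM in 2KO. The uncalled suprabasal markers were Krt1, Krt10 and Sprr1a, and Krt1 overlapped between groups (log2 fold change -0.21, adjusted p = 0.780). The suprabasal sum, the periderm sum, Dsg1a, Dsc2, Dsc3, Dsp, Pkp1 and Pkp3 share their order over the 4 libraries. Control replicate 1 is highest and 2KO replicate 2 lowest, though the 2KO libraries almost coincide for Dsc3. Dsg2, Dsg3, Jup, Perp and the basal sum have other orders. How many of all genes share this order was not counted. The part of layer make-up in the decrease of Dsg1a, or of any other desmosome gene, was not tested.

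Markers of other cell types, in counts, summed to less than those of epithelium. Their calls stand beside 4.92% lower and 7.00% higher among all genes at the adjusted threshold, and the unadjusted counts have no such share beside them. Summed levels in control replicates 1 and 2 and 2KO replicates 1 and 2 were 29.3, 21.8, 39.6 and 60.0 CPM for 8 endothelial genes, with 0 called (2 higher at an unadjusted p under 0.05) and Cdh5 the most abundant, and 273, 341, 371 and 327 CPM for 8 mesenchymal genes, with 0 called (1 lower and 2 higher unadjusted) and Dcn the most abundant. Muscle genes stood apart in control replicate 2, at 387 CPM against 60.7 to 78.3 CPM in the other libraries, mostly Ttn (222 CPM in that library), and 0 of 8 were called (3 lower unadjusted). Immune markers summed to 25.4, 18.5, 52.7 and 44.1 CPM, with Cd68 called higher and Ptprc under 1 CPM, and nerve and Schwann cell markers to 24.6, 18.1, 9.53 and 13.6 CPM, with Tubb3 called lower. Merkel cell markers summed to 106, 117, 165 and 176 CPM, with Krt18, a simple-epithelium keratin, called higher, and the red cell marker Alas2 was at 7.06, 7.33, 3.8 and 2.37 CPM. Haemoglobin could not be read from the counts: Hba-a1 was listed at 0 counts in every library, but at 14.6, 39.1, 13.7 and 39.3 FPKM in the deposited FPKM, with replicate 2 higher than replicate 1 in both groups. The endothelial, immune and Merkel sums were higher in 2KO, like Pkp2, and their part in its rise was not tested. In the same library order, Cd68 alone gave 21.3, 11.9, 47.2 and 39.0 CPM of the immune sums. Krt18 gave 69.6, 68.3, 115.9 and 128.2 CPM of the Merkel sums. Among the other immune markers, Csf1r was higher in both 2KO libraries than in either control. Lyz2 was lower in both, at 32 and 18 counts in control and 0 and 3 in 2KO. Neither Csf1r nor Lyz2 was called (adjusted p = 0.411 and 0.108). Fcer1g was too low to be tested, with 7 and 21 counts in control and 5 and 6 in 2KO. Ptprc and Tyrobp overlapped. Of the other Merkel markers, Krt8, Krt20 and Isl1 overlapped. Atoh1 was too low to be tested, with 0 and 3 counts in control and 4 and 38 counts in 2KO. Of all genes tested, 57.7% did not overlap between groups in 1 direction or the other.

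Genes with the most similar profile over the 4 libraries were sought among 11021 tested genes of at least 5 CPM, by the root mean square difference in log2(CPM + 1) after centring each gene. Nearest to Dsg1a were Krt13 (difference 0.0973), Serpinb3a (0.143), Tgm5 (0.182), Fam25c (0.199) and Ankrd35 (0.203). Tgm5 encodes a transglutaminase of the cornified envelope and Serpinb3a a protease inhibitor of squamous epithelium. Among the other desmosome genes the nearest to Dsg1a was Dsc2, at 0.819, and the farthest was Jup, at 1.58. Nearest to Dsc3 were Dynlt3 (0.0150), Il6ra (0.0286), S100a16 (0.0347), Madd (0.0445) and Cenpe (0.0457), with Dsp at 0.123. Nearest to Dsp were Tprg (0.0404), Hebp2 (0.0567), Gsdmc (0.0706), Anxa8 (0.0781) and Slc35g1 (0.0793), and 26 of the 11021 genes were nearer to Dsp than Dsc3 was. With 4 libraries, many genes with a like fold change have a like profile, so this is a description only.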

How the data were processed

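RNA was measured in 2 control and 2 Ring1a/b 2KO libraries. Per the labels' protocols, RNA of sorted cells was reverse transcribed, amplified and sequenced as single reads of 100 nucleotides. Amplified reads are not independent molecules, and spread was taken between libraries. The authors deposited whole-number read counts per gene and FPKM values. The submitters' processing notes name the build mm10 and the tools HTSeq 0.6.1, DESeq2 1.6.3, Cufflinks 2.2.1 and TopHat2 2.0.13. The annotation, how strand was treated and which tool made which value were not given in the sources used here.

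The deposited counts were fitted with edgeR 4.0.16 in R 4.3.3 (TMM scaling, filterByExpr, two-sided quasi-likelihood test of genotype, adjustment over 15336 of 24453 genes, threshold 0.05). Adjusted p-values come from that test where no other is given, and CPM uses TMM-scaled library sizes. Replicates differed by more than counting noise, with a chi-square over its degrees of freedom of 28.7 for control and 22.7 for 2KO. Ratios between genes use the deposited FPKM. Coordinates and exon lengths are from GENCODE M21 (same build). The steps were tested on simulated counts.

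The members and lists were chosen with earlier results of these data known. The genes named are the 10 members, the targeted genes, up to 4 called genes of each related list by smallest p (otherwise the 2 most abundant), the 2 most abundant markers of other cell types, of which examples are given, and the 5 nearest profiles to Dsg1a, Dsc3 and Dsp. Other genes were named after their values were seen. A gene of the hemidesmosome list that this rule names is not reported here. The alternatives tried were each library left out, a replicate block, other filters on low values, RLE or upper quartile scaling, and other tools (limma-voom and limma-trend from limma 3.58.1, DESeq2 1.42.0).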

Additional observations from a re-analysis of the deposited data

How the results depend on the processing

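Under 15 alternatives, Dsg1a, Dsc2, Dsc3 and Dsp kept their direction and stayed called in 14 each, and Pkp1 and Perp in 12. The exceptions were fits to FPKM. On log2(FPKM + 1) with no filter on low values, 0 of the 10 desmosome genes and 0 genes in all were called, lower or higher (7 of the 10 and 3764 genes at an unadjusted p under 0.05). The log2 fold changes there were -2.61 for Dsg1a, -1.34 for Dsc2, -0.87 for Dsc3, -1.05 for Dsp, -0.71 for Pkp1 and -0.82 for Perp. With the filter (FPKM of at least 1 in 2 libraries), Pkp1 (-0.71) and Perp (-0.82 with a pseudocount of 1, -0.83 with 0.1) also missed the threshold. Then 260 genes were lower and 627 higher with a pseudocount of 1, and 186 and 472 with 0.1. Of the 16 genes called lower and 3 called higher in the related lists, the counts were 7 and 1, 6 and 1, and 0 and 0 without the filter. With no filter on low counts, 1242 genes were lower, Dsg3 was called at -0.86 and Pkp3 at -0.55. Pkp3 was also called with DESeq2 (-0.54) and limma-voom (-0.54). Jup, called under no alternative, turned to -0.047 with a pseudocount of 1, with or without the filter, and to -0.048 with 0.1.

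The labels do not say whether replicate numbers pair the libraries. The correlation over genes of the difference between replicates 1 and 2, control against 2KO, was -0.00218. A single value over all genes cannot show pairing that touches only some of them. With the replicate block Dsg3 (-0.82, adjusted p = 0.00401) and Pkp3 (-0.54, adjusted p = 0.0452) were called as well, and no other desmosome gene changed sides.

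With each library left out in turn, where the lone library of a group is assumed to vary like the other group, 6 to 8 desmosome genes were called lower. Log2 fold changes ranged from -1.28 to -0.27 for Dsg3, from -0.71 to -0.34 for Pkp3 and from -0.10 to 0.18 for Jup. Over all genes 839 to 1643 were higher and 537 to 1104 lower. In the related lists 9 to 25 were lower and 3 to 8 higher. The least count lower (9) and the greatest counts higher (8 and 1643) came without control replicate 1, and 25 came without control replicate 2.

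From CPM per kilobase in place of FPKM, the group difference (2KO minus control) in the Dsg1a share of desmogleins was -25.1 percentage points against -16.3, in Dsg1a per 100 of plaque -3.56 against -2.03, in Dsp over Jup -1.69 against -1.12, and in the basal or broad cadherins per 100 of plaque -6.13 against -4.04. With Dsg1b added, chosen after seeing the data, the first 2 were -23.6 and -3.85. The causes were not tested. Depth was no limit for the 10 genes, which had 369 to 117396 counts per library.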
